A study of Mus musculus with 9 samples.

Results

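The interferon-inducible GTPases of the mouse were examined in whole testes of the first wave of spermatogenesis. They are 9 genes, found by their symbols among the 22337 genes measured: Ifi47, Irgm1, Irgm2, Igtp, Iigp1 and Tgtp1 of the immunity-related GTPase (IRG) family, and Gbp2, Gbp3 and Gbp7 of the guanylate-binding protein (GBP) family. The group was selected on the levels of Ifi47, which were higher in WT-KI than in WT-WT testes, so the values of that comparison are given as a description and carry no test. RNA of 9 testes from 3-week-old mice was sequenced, 3 of each of 3 genotypes. WT-WT testes are wild-type at Piwil4, WT-KI testes are heterozygous for the R264W missense allele (Piwil4 WT/R264W) and KI-KI testes are homozygous for it (Piwil4 R264W/R264W). The allele was made by CRISPR-Cas9 editing of C57BL/6 zygotes, it is carried by every cell of the mouse, and no agent was given. Gene counts do not show which allele was read, so the genotypes rest on the labels. The sources used here do not say whether replicates came from separate mice or litters, so the tests measure only the spread between these testes.

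Interferon-γ binds the receptor pair Ifngr1 and Ifngr2, and through the kinases Jak1 and Jak2 the signal reaches the GAS element of target promoters. A second element, the ISRE, is bound by Irf1 and by the complex with Stat2 and Irf9 that type I interferons form. IRG and GBP proteins are among the most strongly induced products of this pathway and act inside the cell on vacuoles that hold parasites or bacteria. Ifi47, Iigp1 and Tgtp1 belong to the IRG effectors that load onto such vacuoles, while Irgm1, Irgm2 and Igtp (also called Irgm3) are regulators that keep the effectors inactive on the membranes of the cell itself. In the testis, interferon responses are known from macrophages and from the somatic cells around the germ cells, and Irgc1 is an IRG gene of spermatids.

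The stretch of 110 bases before the start of transcription is shown for 8 of the 9 genes, because ISRE and GAS elements are known from promoters of IRG and GBP genes. The sequences are from RefSeq (GRCm38.p6), read 5′ to 3′ on the strand of the gene, and the capitals mark matches to the ISRE core GAAANNGAAA or the GAS core TTCNNNGAA, on either strand. For Gbp3 the first of its 2 windows is shown.
Igtp: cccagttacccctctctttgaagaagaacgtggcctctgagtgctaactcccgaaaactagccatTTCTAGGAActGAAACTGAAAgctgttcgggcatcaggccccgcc
Irgm2: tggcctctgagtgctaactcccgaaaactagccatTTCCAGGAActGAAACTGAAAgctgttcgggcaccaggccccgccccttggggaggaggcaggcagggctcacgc
Tgtp1: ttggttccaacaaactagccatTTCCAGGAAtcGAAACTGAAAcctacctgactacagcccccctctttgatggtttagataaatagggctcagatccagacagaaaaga
Irgm1: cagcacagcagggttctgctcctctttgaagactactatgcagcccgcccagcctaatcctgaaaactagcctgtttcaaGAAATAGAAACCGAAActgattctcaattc
Gbp2: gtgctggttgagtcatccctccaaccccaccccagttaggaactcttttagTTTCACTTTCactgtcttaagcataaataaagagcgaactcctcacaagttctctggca
Gbp3: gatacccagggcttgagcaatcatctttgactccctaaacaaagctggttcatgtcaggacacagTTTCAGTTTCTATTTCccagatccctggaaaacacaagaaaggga
Gbp7: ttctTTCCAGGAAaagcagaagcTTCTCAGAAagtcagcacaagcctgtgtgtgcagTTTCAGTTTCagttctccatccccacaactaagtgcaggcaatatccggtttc
Ifi47: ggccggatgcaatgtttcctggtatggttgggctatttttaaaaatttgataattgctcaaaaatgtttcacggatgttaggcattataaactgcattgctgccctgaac
Their positions are chr11:58199446-58199555, chr11:58214867-58214976 and chr11:49076477-49076586 on the plus strand and chr11:48992247-48992356 and chr11:48871421-48871530 on the minus strand of chromosome 11, and chr3:142620553-142620662, chr3:142559934-142560043 and chr3:142530226-142530335 on the plus strand of chromosome 3. Over windows of 300 bases (250 before and 50 after the start), the ISRE core was found in 7 of the 8 genes and in 3.44% of 32851 windows of the table, and the GAS core in 4 of the 8 genes (Igtp, Irgm2, Tgtp1 and Gbp7) and in 8.30% of the windows. In Igtp, Irgm2 and Tgtp1 the GAS core began 45, 75 and 88 bases before the start and the ISRE core 34, 64 and 77 bases before it, so that the same order of elements, GAS first, stood in all of them. In Gbp3 and Irgm1 a pair of ISRE matches overlapped each other, and no GAS match overlapped an ISRE match in these stretches. The Ifi47 window held neither core. Iigp1 was not matched in the table. A match shows only that the letters are there, and a window without a match says nothing of bases outside it or of other starts.

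Each testis had a total of between 17.96 and 24.3 M estimated counts, and 3 counts, the limit that a count of 0 allows, were between 0.122 and 0.171 CPM (the usual scaling of counts to a common library size, here with TMM). Intervals of that kind cover counting error only. Marker genes of the testis were abundant in every library. The 12 Sertoli cell genes summed to between 1776 and 2720 CPM and the 12 spermatocyte genes to between 3604 and 4379 CPM. Genes of the epididymis summed to 58.7 CPM in KI-KI replicate 1, against 4.78 to 12.5 CPM in the other testes. Those of adipose tissue summed to 28.1 CPM in KI-KI replicate 3, against 4.84 to 14.7 CPM in the others. The part of such tissue in the values of the GTPase genes was not tested. The first wave had come to different points in testes of the same genotype. A stage score, taken as the mean log2 CPM over 19 round spermatid genes, was 6.17, 2.86 and 1.71 in WT-WT, 5.23, 3.83 and 1.12 in WT-KI and 2.73, 3.97 and 5.998 in KI-KI replicates 1, 2 and 3, where a higher score stands for a testis further along.

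WT-KI replicate 3 stood apart in this group of genes. It had the lowest stage score of all 9 testes, and 7 of the 9 GTPase genes had their highest CPM there, where 17.8% of 15771 genes did. The exceptions were Tgtp1, with its highest CPM in WT-KI replicate 1, and Gbp3, with its highest CPM in WT-WT replicate 3. The split of counts between Tgtp1 and its near-identical copy Tgtp2 is uncertain. Their sum was highest in WT-KI replicate 3, with 3.47 CPM against 2.02 CPM in WT-KI replicate 1. Relative to the median of the other 8 testes, the CPM in WT-KI replicate 3 was 3.97 times as high for Iigp1, 2.85 for Ifi47, 2.31 for Igtp, 1.96 for Gbp2 and between 1.34 and 1.59 for the other 5 genes. The median of these ratios was 1.59, against 1.02 over all genes. The 12 macrophage genes summed to 101 CPM in that testis and to between 98.4 and 125 CPM over all 9, and the 13 lymphocyte genes to 4.89 CPM and to between 3.85 and 5.21 CPM, so neither sum was highest there. The sum of the spermatogonial genes was highest in that testis (311 CPM, against 216 to 297 CPM in the other testes). So were the sums of the type I interferon targets (211 CPM, against 181 to 198 CPM) and the interferon-γ pathway genes (318 CPM, against 228 to 311 CPM). Also highest there were the sums of the other GBP genes (9.04 CPM), other interferon-inducible large GTPases (10.1 CPM) and type I interferon ligands and receptors (112 CPM). The sum of the other interferon-γ targets was not, with 457 CPM against 469 CPM in WT-KI replicate 2. Of these targets 5 of 27 had their highest CPM in WT-KI replicate 3, as did 10 of the 30 type I interferon targets, against 17.8% of all genes. Some of the values below are given both with and without WT-KI replicate 3. A value given only once may depend on that testis too.

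In the annotation 5 of the genes lie on chromosome 11, 3 on chromosome 3 and Iigp1 on chromosome 18. All 9 genes were transcribed at a low level, with counts between 8 and 132 in every testis. Levels of different genes were compared in FPKM, which takes length into account. In that unit Gbp3 was highest at 1.73 ± 0.598 (SD, n = 9 testes), followed by Irgm1 at 1.18 ± 0.267, Gbp7 at 0.974 ± 0.213, Iigp1 at 0.898 ± 0.669, Irgm2 at 0.887 ± 0.272, Gbp2 at 0.808 ± 0.308, Igtp at 0.796 ± 0.340, Ifi47 at 0.583 ± 0.323 and Tgtp1 at 0.412 ± 0.191. Each neighbouring pair in this order differed by less than the larger of its SDs. All genes were measured in the same testes, so these SDs do not measure the spread of a difference between genes. The order between neighbours was not tested. The effector Iigp1 varied most among testes for its level, through WT-KI replicate 3, without which it had 0.685 ± 0.216 FPKM (SD, n = 8). By comparison Irgc1, the IRG gene of spermatids, had a mean of 59.1 FPKM.

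**Figure D1:**
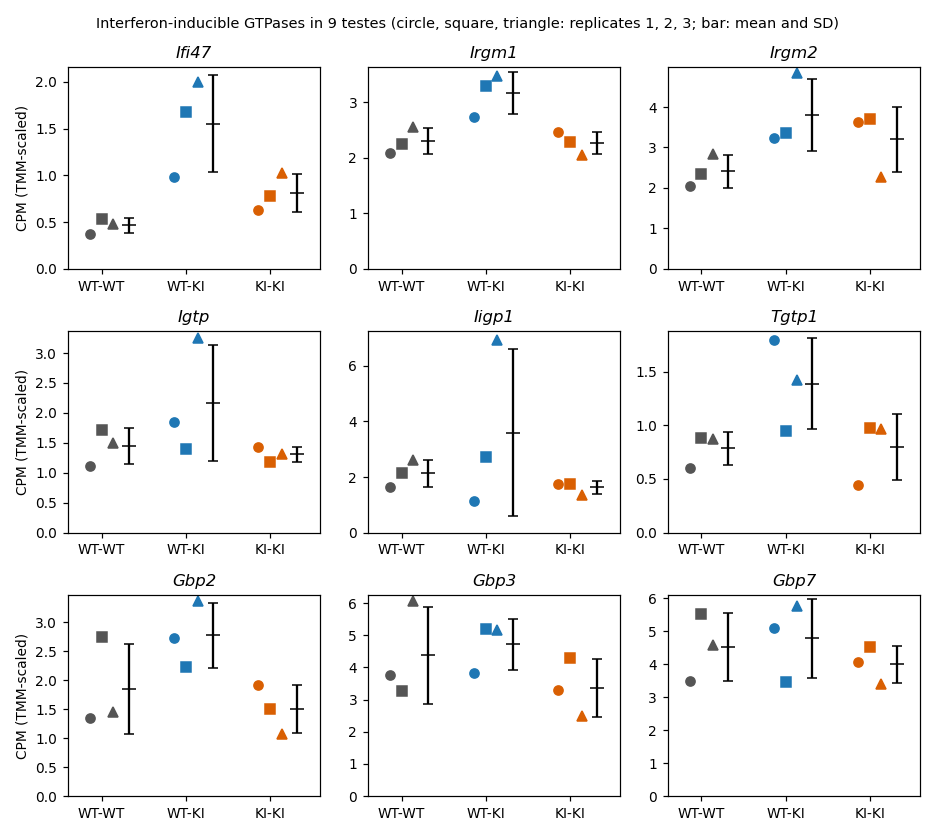
Each panel shows 1 of the 9 GTPase genes, with TMM-scaled CPM on the y axis and the 3 genotypes on the x axis. Circles, squares and triangles are replicates 1, 2 and 3, and the bar gives the mean and SD of 3 testes. The 3 WT-KI testes lie above the 3 WT-WT testes for Ifi47, Irgm1, Irgm2 and Tgtp1, and Iigp1 has 1 testis, WT-KI replicate 3, far above the rest at 6.94 CPM.

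Taken over genotypes, the summed CPM of the 9 genes was 16.4, 21.4 and 22.97 in WT-WT replicates 1, 2 and 3, 23.4, 24.3 and 36.2 in WT-KI and 19.6, 21.02 and 16.0 in KI-KI. The 3 WT-KI testes were thus above the 6 others, by a narrow margin for replicate 1, while WT-WT and KI-KI testes overlapped. Without WT-KI replicate 3 the WT-KI mean fell from 28.0 ± 7.17 (SD, n = 3) to 23.8 ± 0.648 CPM (SD, n = 2). Whole testes were sequenced, so fewer cells of a type and less RNA per cell cannot be told apart here.

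In WT-KI against WT-WT testes, the comparison behind the selection of the genes, all 9 log2 fold changes were above 0, with a median of 0.58 (all genes, -0.02). In 4 of the 9 genes (Ifi47, Irgm1, Irgm2 and Tgtp1) the WT-KI testes lay wholly above the WT-WT testes, where 2.41% of 15413 genes did, and in 0 of the 9 they lay wholly below, where 2.95% did. Without WT-KI replicate 3 the median was 0.38, and Iigp1 (-0.16) and Gbp7 (-0.09) were below 0. In that testis and in the other WT-KI testes alike, the 4 genes were above every WT-WT testis.

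The comparison of KI-KI with WT-WT testes asks for an effect of the homozygous allele. Of the 8 genes other than Ifi47, 0 had an adjusted p under 0.05 by edgeR's quasi-likelihood F test, adjusted by Benjamini-Hochberg (0% of 15543 genes) or with DESeq2, 0 had an unadjusted p under 0.05 (1.26% of genes), and 0 passed that limit with a change over 2-fold (0.18% of genes). The median log2 fold change was -0.14 (all genes, -0.01), with 3 genes above and 6 below 0. The KI-KI testes lay wholly above the WT-WT testes for 1 gene, Ifi47 (2.15% of genes), and wholly below them for 0 (3.43% of genes). This comparison shares the WT-WT libraries with the one used for the selection.

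In KI-KI against WT-KI testes all 9 log2 fold changes were below 0, with a median of -0.72 (all genes, 0.01). As these share the WT-KI libraries with the comparison used for the selection, the direction is not independent of it. Of the 8 genes other than Ifi47, 0 had an adjusted p under 0.05 by edgeR (0% of 15463 genes) or DESeq2, while 2 (Irgm1 and Gbp2) had an unadjusted p under 0.05 (2.22% of genes) and 0 also changed over 2-fold (0.446% of genes). The KI-KI testes lay wholly below the WT-KI testes for 2 genes, Irgm1 and Gbp2 (3.73% of genes), and wholly above them for 0 (3.34% of genes). Without WT-KI replicate 3 the median was -0.40, and all 9 were still below 0. The genotypes also differed in stage score. With that score as a covariate, in a fit of all 9 libraries, the median was -0.57, and Iigp1 went from -1.14 to -0.67.

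**Figure D2:**
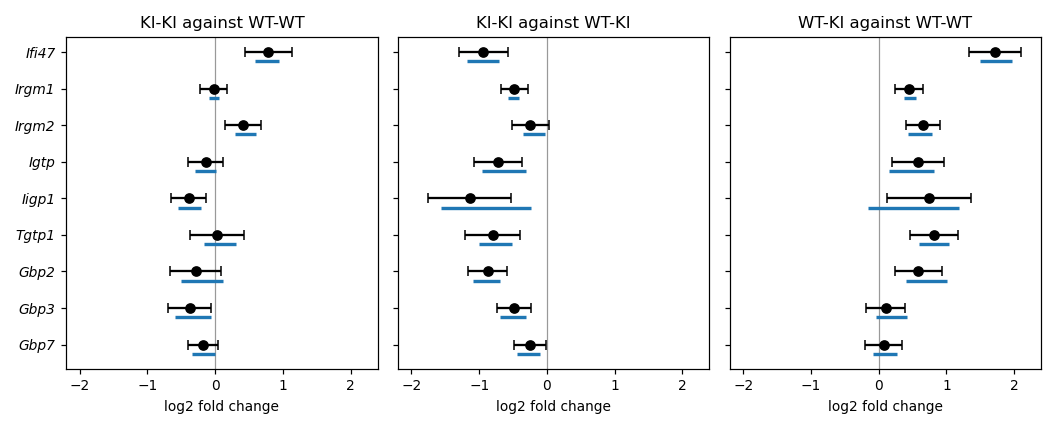
The 3 panels give the log2 fold change of each GTPase gene (x axis) between a pair of genotypes. Black points and bars are the edgeR estimate and its standard error, and the blue line below each is the range over fits that each dropped 1 library. The WT-KI against WT-WT panel is a description, since that comparison chose the genes. Ifi47 is farthest from 0 there at 1.72, and all 9 points of the KI-KI against WT-KI panel lie below 0.

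Ifi47 is an IRG effector also known as Irgd, and the 1 window examined for it held neither core. It had 0.37, 0.54 and 0.48 CPM in WT-WT replicates 1, 2 and 3, 0.99, 1.68 and 1.998 CPM in WT-KI and 0.63, 0.78 and 1.02 CPM in KI-KI testes. WT-WT testes were below all others, which for the WT-KI testes is what the gene was selected on. KI-KI and WT-KI testes overlapped, since KI-KI replicate 3 was slightly above WT-KI replicate 1. The counts behind these values were between 8 and 38 per testis. The means were 0.464 ± 0.0852, 1.55 ± 0.516 and 0.809 ± 0.201 CPM (SD, n = 3 each). The log2 fold change of WT-KI against WT-WT was 1.72 (standard error 0.38), with a range from 1.49 (without WT-KI replicate 3) to 1.97 over fits that each dropped 1 library. KI-KI testes differed from WT-WT testes by 0.79 (standard error 0.35) and from WT-KI testes by -0.94 (standard error 0.36) on the log2 scale. No p is given for Ifi47 between genotypes, because both comparisons use libraries on which it was selected. In the annotation of GRCm38 Ifi47 overlaps the olfactory receptor gene Olfr56 on the same strand, and Olfr56 had 0 counts in every testis.

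Of the 3 regulators, Irgm1 had the narrowest spread for its level. It had 2.09, 2.25 and 2.56 CPM in WT-WT, 2.74, 3.29 and 3.47 CPM in WT-KI and 2.46, 2.29 and 2.05 CPM in KI-KI replicates 1, 2 and 3, so WT-KI testes were above all others and the other genotypes overlapped. Against WT-KI testes KI-KI testes were lower by a log2 fold change of -0.48 (standard error 0.20, unadjusted p = 0.047, adjusted p = 0.95), which did not pass the test after adjustment, and they differed from WT-WT testes by -0.02 (standard error 0.20) on the log2 scale.
Irgm2 had 2.04, 2.35 and 2.85 CPM in WT-WT, 3.23, 3.35 and 4.84 CPM in WT-KI and 3.62, 3.71 and 2.28 CPM in KI-KI testes. KI-KI replicates 1 and 2 were within the range of the WT-KI testes and KI-KI replicate 3, the testis of that genotype furthest along, was within the range of the WT-WT testes. The log2 fold change of KI-KI testes was 0.41 (standard error 0.26, adjusted p = 0.9998) against WT-WT and -0.24 (standard error 0.27, adjusted p = 0.95) against WT-KI testes.
Igtp had 1.11, 1.71 and 1.496 CPM in WT-WT, 1.84, 1.40 and 3.26 CPM in WT-KI and 1.43, 1.18 and 1.31 CPM in KI-KI testes. Apart from WT-KI replicate 3 the 3 genotypes overlapped, and the log2 fold change of KI-KI against WT-KI went from -0.72 (standard error 0.35, adjusted p = 0.95) to -0.31 without that testis. Igtp and Irgm2 lie next to each other, and transcripts annotated to them overlap on the same strand, so reads of the shared part cannot be assigned with certainty.

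The effector Iigp1 (also called Irga6) had 1.62, 2.15 and 2.61 CPM in WT-WT, 1.12, 2.74 and 6.94 CPM in WT-KI and 1.74, 1.76 and 1.37 CPM in KI-KI replicates 1, 2 and 3. The WT-KI testes held both its lowest and its highest value, so genotype did not order this gene. KI-KI testes differed from WT-KI testes by -1.14 on the log2 scale (standard error 0.61, adjusted p = 0.95), and by -0.23 without WT-KI replicate 3.
Tgtp1 (also called Irgb6) had 0.60, 0.88 and 0.87 CPM in WT-WT, 1.79, 0.95 and 1.42 CPM in WT-KI and 0.45, 0.98 and 0.97 CPM in KI-KI testes. WT-KI testes were above WT-WT testes, replicate 2 only just, and KI-KI testes overlapped both. Its counts were fractional in all 9 libraries, as counts shared with a near-identical copy are, and its split from the copy Tgtp2 is uncertain. The sum of Tgtp1 and Tgtp2 was 1.07, 1.18 and 1.16 CPM in WT-WT, 2.02, 1.62 and 3.47 CPM in WT-KI and 0.671, 1.71 and 1.195 CPM in KI-KI testes, which leaves WT-KI above WT-WT testes and KI-KI replicate 2 among the WT-KI testes.

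GBPs are large GTPases that assemble on pathogen vacuoles and help to open them. Gbp2 had 1.35, 2.74 and 1.45 CPM in WT-WT, 2.74, 2.23 and 3.36 CPM in WT-KI and 1.92, 1.51 and 1.08 CPM in KI-KI replicates 1, 2 and 3. All KI-KI testes were below all WT-KI testes, and WT-WT replicate 2 reached the WT-KI range. The log2 fold change of KI-KI was -0.87 (standard error 0.29, unadjusted p = 0.020, adjusted p = 0.95) against WT-KI, -0.71 without WT-KI replicate 3, and -0.29 (standard error 0.38, adjusted p = 0.9998) against WT-WT testes.
For Gbp3 and Gbp7 the ranges of all 3 genotypes overlapped. Gbp3 had between 3.28 and 6.08 CPM in WT-WT, 3.81 and 5.19 CPM in WT-KI and 2.50 and 4.29 CPM in KI-KI testes, and Gbp7 had between 3.48 and 5.53, 3.46 and 5.78 and 3.42 and 4.53 CPM. Their highest values were in WT-WT replicate 3 for Gbp3 and WT-KI replicate 3 for Gbp7. Their log2 fold changes of KI-KI against WT-KI were -0.48 (standard error 0.25) and -0.25 (standard error 0.24), with an adjusted p of 0.95 each. Transcripts annotated to Gbp7 overlap the gene Gm43802 on the same strand.

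The genes were also compared along the first wave. The testis furthest along had the lowest sum of the 9 genes in each genotype, 16.4 CPM in WT-WT replicate 1 (stage score 6.17), 23.4 CPM in WT-KI replicate 1 (5.23) and 16.0 CPM in KI-KI replicate 3 (5.998). The least advanced testis had the highest sum in WT-WT and WT-KI but not in KI-KI, where replicate 2 did. Of the 9 genes, 4 had their lowest CPM in KI-KI replicate 3 and 3 in WT-WT replicate 1, the testes with the highest scores, where 17.6% and 18.2% of all genes had theirs. The slope on the stage score was fitted over all 9 libraries with genotype as a factor. It was below 0 for 8 of the 9 genes, and for 8712 of 15771 genes tested. The median of the 9 was -0.11 log2 units per unit of score (all genes, -0.01), and -0.08 without WT-KI replicate 3.
Iigp1 fell with the stage score, with a slope of -0.32 (standard error 0.09, adjusted p = 0.017 by edgeR), which over the range of scores comes to a ratio of 0.331. It was the 1 gene of the 9 past the threshold in that direction, where 8.44% of 15771 genes were, and 0 of the 9 were past it in the other direction, where 17.6% of genes were. The call was lost without WT-KI replicate 3, where the slope was -0.18 (adjusted p = 0.20). Irgm2 (-0.14, adjusted p = 0.063), Igtp (-0.15, adjusted p = 0.16), Gbp3 (-0.11, adjusted p = 0.18), Gbp7 (-0.09, adjusted p = 0.23), Gbp2 (-0.12, adjusted p = 0.25), Irgm1 (-0.07, adjusted p = 0.36) and Ifi47 (-0.08, adjusted p = 0.56) did not pass the test. For Tgtp1 the slope was 0.03 (adjusted p = 0.85), with its split from Tgtp2 (-0.27, adjusted p = 0.25) uncertain.

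**Figure D3:**
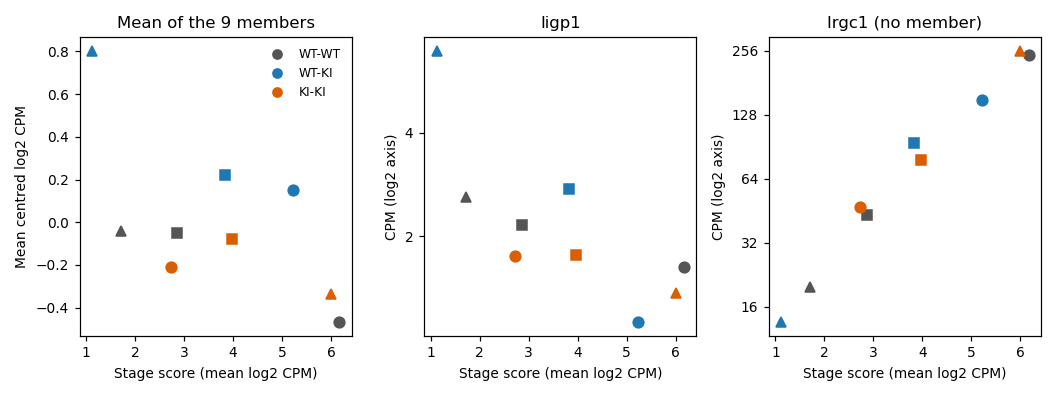
Each point is a testis, coloured by genotype, with the stage score (mean log2 CPM of 19 round spermatid genes) on the x axis and circles, squares and triangles for replicates 1, 2 and 3. The y axes are the mean centred log2 CPM of the 9 GTPase genes, the CPM of Iigp1 and the CPM of Irgc1, the last 2 on log2 axes. The mean of the 9 genes is highest in WT-KI replicate 3, at the lowest score, and lowest in WT-WT replicate 1, at the highest score, while Irgc1 goes from 13.5 to 256 CPM with the score.

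Other IRG genes were measured too, 8 in all, of which 5 had enough counts for the fit on the score. Irgc1 rose with the score by 0.81 log2 units per unit (standard error 0.03, adjusted p = 1.4e-09), with a range from 0.76 to 0.83 over fits that each dropped 1 library. The score is made from round spermatid genes, with a median slope of 0.81, so the rise of this spermatid gene is no independent result. Irgc1 had 13.5 CPM in WT-KI replicate 3 and 256 CPM in KI-KI replicate 3, where the 9 interferon-inducible genes summed to 36.2 and 16.0 CPM. Irgq (10.5 to 16.4 CPM), 9930111J21Rik2 (0.852 to 2.51 CPM), F830016B08Rik (0.0979 to 0.949 CPM) and Tgtp2 (0.224 to 2.05 CPM) did not pass the test. Tgtp2 was 7.03 times as high in WT-KI replicate 3 as in the median of the other 8 testes, with 2.05 CPM. Gm4951, Gm5431 and 9930111J21Rik1 were at or below 1.01 CPM in every testis and were not tested.
Of the 8 other GBP genes, 4 had enough counts, and all 4 had their highest CPM in WT-KI replicate 3. Gbp4 fell with the score by -0.32 log2 units per unit (standard error 0.11, adjusted p = 0.041). The call was lost on leaving out any of 7 libraries, with the largest effect for WT-KI replicate 3 (slope -0.20, adjusted p = 0.34). In KI-KI against WT-KI testes the log2 fold changes were -0.93 for Gbp4, -0.56 for Gbp5, -0.58 for Gbp6 (unadjusted p = 0.023) and -0.88 for Gbp9 (unadjusted p = 0.014), and none of these (0 of 4) passed an adjusted p under 0.05 by edgeR. Their median was -0.73, and that of the 9 genes described above, with Ifi47, was -0.72. Both come from the same libraries, of which the WT-KI ones were used for the selection, so their closeness is no independent result. Gbp2b, Gbp8, Gbp10 and Gbp11 had at most 8.49 counts in any testis.

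The ligand of the pathway was not detected: Ifng had 0 counts in all 9 testes, which allows at most 0.171 CPM in any of them, and so did Ifnb1, Ifne and Ifna4 of the type I interferons. Taken as a list, the 15 pathway genes examined had a mean log2 CPM between 2.10 and 2.57 over the testes. That of the 9 GTPase genes was between 0.61 and 1.88. Not every pathway gene was above the GTPase genes, and CPM takes no account of length. The summed CPM of the 15 pathway genes examined was between 228 and 309.6 in WT-WT, 268 and 318 in WT-KI and 229.9 and 293 in KI-KI testes. With the stage score, 3 of the 13 pathway genes tested fell (background 8.44% over all genes): Ifngr2 (-0.12, adjusted p = 0.0045), Irf9 (-0.14, adjusted p = 0.015) and Ifngr1 (-0.11, adjusted p = 0.024). Irf2, a repressor of interferon targets, rose (0.18, adjusted p = 0.011). Jak1 (-0.07), Jak2 (-0.09), Irf1 (-0.09), Irf8 (-0.05), Stat2 (-0.04), Ptpn2 (-0.04), Socs1 (-0.04), Socs3 (-0.01) and Nlrc5 (0.00) did not pass the test, and Ciita had at most 6 counts. The slopes of Ifngr2, Irf9, Ifngr1 and Irf2 kept their direction in all fits that dropped 1 library, but each of these calls was lost without some library. That of Ifngr2 was lost without WT-WT replicate 1 (adjusted p = 0.054), that of Irf9 without WT-WT replicate 1 (0.15) or WT-KI replicate 3 (0.063), that of Irf2 without WT-WT replicate 1 (0.093) or KI-KI replicate 3 (0.063), and that of Ifngr1 without any of 4 libraries. Between KI-KI and either other genotype 0 of the 13 had an unadjusted or adjusted p under 0.05 by edgeR, and Irf1 was nearest, with a log2 fold change of -0.54 against WT-KI testes (unadjusted p = 0.050).

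**Figure D4:**
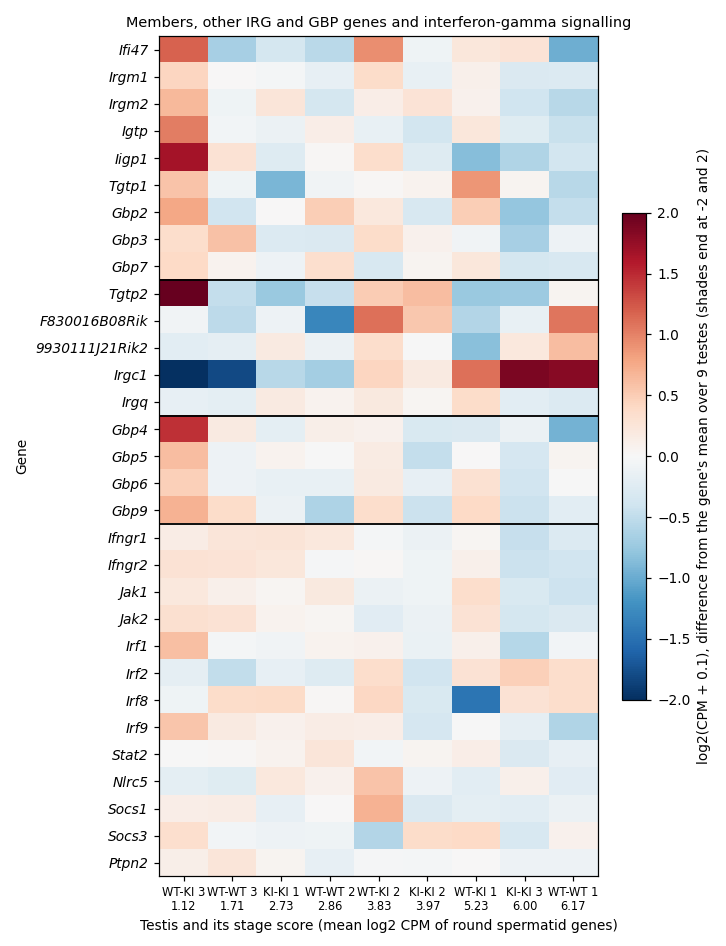
Rows are the 9 GTPase genes, then the other IRG genes, the other GBP genes and the interferon-γ pathway genes, divided by black lines, and columns are the 9 testes ordered by stage score from 1.12 to 6.17. Colour gives log2(CPM + 0.1) as the difference from the mean of the gene over 9 testes, with shades ending at -2 and 2. The leftmost column, WT-KI replicate 3, is red for all 9 GTPase genes and all 4 other GBP genes, and Irgc1 runs the opposite way.

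The lists of other interferon targets and of cell types were set beside these genes. Over all 15771 genes tested, 8.44% fell and 17.6% rose with the score at an adjusted p under 0.05 by edgeR. The counts of each list are to be read against these shares. Of the 23 other interferon-γ targets tested, 5 fell with the score (Psme1, Psme2, B2m, H2-K1 and Cd274) and 1 rose (Cxcl9). Of the 28 type I interferon targets 1 fell (Adar), and of the 3 genes tested of the type I interferon ligand and receptor list 1 fell (Ifnar1). Of the 11 genes of autophagy conjugation, whose products IRG and GBP proteins work with, Atg5 fell and Map1lc3a, Atg7 and Gabarap rose. Among markers of cells that could carry the transcripts, 1 of 12 macrophage genes rose (Csf1r, slope 0.10, adjusted p = 0.038), 0 of 4 lymphocyte genes passed in either direction by edgeR (1 had an unadjusted p under 0.05), and 1 of 12 endothelial genes rose (Vwf, slope 0.27, adjusted p = 0.000545). Lists of other testis cells also held genes that fell. Of the 12 Sertoli cell genes 2 fell (Wt1 and Fshr) and 1 rose (Rhox5), with 11 slopes below 0 and a median of -0.07. Of the 9 spermatogonial genes tested 2 fell (Lin28a and Uchl1) and 1 rose (Gfra1), with 8 slopes below 0 and a median of -0.07. Of the 12 spermatocyte genes 8 fell and 2 rose (Ccna1 and Pgk2), with a median of -0.07. Of the 9 Leydig cell genes 2 rose (Cyp17a1 and Cyp11a1), and of the 8 peritubular myoid genes 1 rose (Actg2). Except for Map1lc3a, Vwf, Pgk2, Actg2 and 4 of the spermatocyte genes that fell, each of these calls was lost on leaving out some single library, and except for Vwf, Pgk2 and Actg2 these genes were named after their values were seen. Over genotypes the macrophage genes summed to between 98.4 and 114 CPM in WT-WT, 101 and 111 CPM in WT-KI and 111 and 125 CPM in KI-KI testes. The lymphocyte genes summed to between 3.94 and 5.21, 3.85 and 4.89 and 3.87 and 4.16 CPM. The Sertoli cell genes summed to between 1776 and 2326, 2145 and 2720 and 1981 and 2318 CPM, and all 12 had a log2 fold change above 0 in WT-KI against WT-WT testes, with a median of 0.14. The part of these cells in the values of the GTPase genes was not tested.
MHC class II genes, which Ciita switches on after interferon-γ, passed an unadjusted p under 0.05 with a change over 2-fold in KI-KI against WT-KI testes. The log2 fold changes were -1.35 for Cd74, -1.57 for H2-Aa and -2.21 for H2-Eb1, and H2-Eb1 was also lower against WT-WT testes (-1.17, unadjusted p = 0.021), though 0 of them had an adjusted p under 0.05 by edgeR. Their highest values were in WT-KI replicates 1 and 2, not in replicate 3, where Cd74 had 3.00 CPM against 5.88 and 8.26 CPM, so the testis that stood apart in the GTPase genes did not do so in these. By the same limits the spermatogonial gene Nanos3 (-1.35) and the steroidogenic Leydig cell gene Hsd3b6 (1.09) were also picked out among the lists in KI-KI against WT-KI testes. Actg2 of smooth muscle and Pgk2 of spermatocytes, with Irgc1 and Vwf, had the smallest p of the slope on the score among the lists, leaving out the round spermatid genes that make up the score.

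The genes whose profile over the 9 testes was most like the mean of the 9 GTPase genes were found by the smallest root mean square difference of centred log2 CPM. They were Etd, Bckdhb, Gm6871, Mlkl, Dctd, Gm10256, 2700097O09Rik, Alg14, Tent5a and Cln8, with differences between 0.120 and 0.177 log2 units, where the median gene of 15762 had 0.389 and the profile itself varied by 0.350. For Ifi47 the nearest were Tlr2, Isl1, Rab39, Syt13 and Ano3, with differences between 0.413 and 0.452, where the median gene had 0.753. The profile of Ifi47 itself varied by 0.725 log2 units, more than the mean of the 9 genes, so the differences of the sets cannot be compared directly. Neither set held a further IRG or GBP gene. Pearson's r over the 9 testes was between 0.87 and 0.95 for the first set and 0.78 and 0.91 for the second. These are the extremes of a search over all genes, the points share libraries, depth and stage, and they are given as a description.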

How the data were processed

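Total RNA of 9 mouse testes was sequenced as paired-end mRNA libraries. Per the submitters' processing notes and the methods, the authors filtered reads with fastp (version 0.18.0) and assembled them with StringTie (version 1.3.1), and the notes name build mm39. The deposited table gives FPKM and an estimated count for every gene in every testis, and 89.2% of the estimated counts were whole. The counting tool is not given in the sources used here.

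Estimated counts were rounded, filtered (filterByExpr), scaled (TMM) and tested with edgeR's two-sided quasi-likelihood test (version 4.0.16, R version 4.3.3) on 6 libraries per pair of genotypes, and on all 9 for the slope on the stage score, a mean log2 CPM (prior count 1) of genes of round spermatids. P-values were adjusted over all genes tested. SDs are over testes. As alternatives, use was made of DESeq2 (version 1.42.0), size factors of DESeq2 in edgeR, no filter, a replicate block, all 9 libraries, the score as covariate, another score, no genotype term, limma (version 3.58.1) on log2(FPKM + 0.1), and each library left out. The analysis was tested on simulated counts.

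Members and lists were chosen with earlier results of these data known. Named were all members, the detected genes of the other IRG, GBP and interferon-γ pathway lists, the 4 genes of other lists (round spermatids left out) with the smallest p of the slope, list genes past an adjusted p under 0.05, or an unadjusted p under 0.05 with over 2-fold, between KI-KI and another genotype, and the genes most like the members (10) and Ifi47 (5). Gene overlaps are from GENCODE on GRCm38, so no gene coordinates are given. A gene of the pathway list is not reported here.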

Additional observations from a re-analysis of the deposited data

How the results depend on the processing

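Each genotype had 3 testes, stage scores differed within every genotype, and the 9 genes had at most 132 counts each per testis. Of the 9 genes with Ifi47 left out, 0 had an adjusted p under 0.05 in KI-KI against WT-WT or KI-KI against WT-KI testes. This held under every alternative, leaving out each library included. The median log2 fold change of WT-KI against WT-WT testes ran from 0.38 to 0.75 over fits that each dropped 1 library. For the slope on the stage score the number of all 9 genes with an adjusted p under 0.05 was 1. It was 3 with limma on log2(FPKM + 0.1), where Irgm2 (-0.15) and Gbp3 (-0.19) joined Iigp1. In fits that each dropped 1 library it was between 0 and 1, with 0 only without WT-KI replicate 3. Replicate numbers did not pair the samples: the deviations of same-numbered testes from their genotype means correlated between -0.73 and 0.78. With the replicate number as a block, the number for the stage score was 0 (Iigp1, slope -0.25, adjusted p = 0.093). With Ifi47 left out it was 0 in the comparisons of KI-KI with each other genotype, as without the block.

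Some log2 fold changes and slopes changed sign. In KI-KI against WT-WT testes the log2 fold change of Tgtp1 was -0.027 with the replicate block and -0.0068 with the stage score as a covariate, where that of Irgm1 was 0.023. The slope of Tgtp1 on the score was -0.015 with limma. On leaving out each library, the log2 fold changes of KI-KI against WT-WT ran from -0.16 to 0.31 for Tgtp1, -0.29 to 0.014 for Igtp, -0.50 to 0.12 for Gbp2, -0.33 to 0.0032 for Gbp7 and -0.084 to 0.064 for Irgm1, and the slope of Tgtp1 on the score from -0.040 to 0.12. Those of WT-KI against WT-WT ran from -0.16 to 1.18 for Iigp1, -0.041 to 0.41 for Gbp3 and -0.087 to 0.27 for Gbp7. The cause of these changes was not tested.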
